A study of Homo sapiens with 6 samples.

Results

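This account covers the histone genes of T98G cells, a human glioblastoma line, after depletion of the protein kinase DYRK1A. The genes were chosen by name from the deposited table of spike-in normalized counts, by the symbols HIST1H to HIST4H for the replication-dependent clusters and H2AF, H3F3 and H1F for the replacement variants. Of the 23026 genes in the table, 74 matched. By annotation they comprised 52 protein-coding replication-dependent genes, 10 protein-coding variant genes, 11 pseudogenes and 1 antisense RNA. Cells had been transduced in suspension with a lentivirus that delivers a short hairpin RNA, either a control hairpin (shControl) or one directed against DYRK1A (shDYRK1A), and both conditions went through puromycin selection and a recovery without the drug. Each condition has 3 libraries, named 1A, 1B and 1C. The labels name no separate hairpin sequences and do not say that the libraries came from separate transductions, so the p-values measure the spread between these libraries, which may be technical. Fly cells of the line Kc167 had been added to each T98G sample in a fixed proportion of cells, so that their reads give an external scale.

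Histones are the proteins around which DNA is wound: H2A, H2B, H3 and H4 form the core of the nucleosome, and H1 binds the linker between nucleosomes. Replication-dependent genes sit in clusters, lack introns and are transcribed mostly in S phase, when new DNA must be packaged. Their mRNAs are classically the ones of animal cells without a poly(A) tail: they end just past a conserved stem-loop, which the stem-loop binding protein SLBP recognises and the U7 small nuclear ribonucleoprotein helps to cut. Some clustered genes also make a longer, polyadenylated transcript that runs past the stem-loop, as is described for cells that leave the cycle or differentiate. Variant genes lie alone in the genome, are mostly made through the cell cycle and mostly yield polyadenylated mRNAs. The libraries were made with a kit that selects polyadenylated RNA, so a replication-dependent gene was counted only as far as its transcripts passed that selection.

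The stem-loop was searched in the annotated transcripts of each gene (GENCODE v29) as 16 bases with a 6-base stem around a 4-base loop. It had to open in GG and close in CC, and the loop had to read TNTN, where N is any base. A match was found in 33 of the 74 genes, 30 of them replication-dependent, in 9 distinct sequences. In HIST1H2AK, HIST1H2AL and the pseudogene HIST1H2APS4, which these counts include, the match has another stem. In HIST1H2AK and HIST1H2AL it most likely lies in the coding sequence and is not the stem-loop of the 3′ end. For the pseudogene this was not tested. Among all 19922 protein-coding genes searched, 3.18% held a match, so that the letters alone do not mark a histone gene. The 4 sequences below, with the stem in capitals and the loop in lower case, cover the genes that the results turn on. They are shown because the 3′ end bears on which transcripts a protocol based on poly(A) selection could count.
HIST2H2BE: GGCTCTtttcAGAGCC
HIST1H2BD: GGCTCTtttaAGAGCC
HIST1H3E: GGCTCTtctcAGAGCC
H2AFX: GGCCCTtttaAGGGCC
The sequence of HIST2H2BE was shared by 14 genes, HIST1H2AC, HIST1H3H and HIST2H2BF among them, and that of HIST1H2BD by 4. HIST1H3E was the only gene with its loop, and H2AFX was the only variant gene with a match. In HIST2H2BE the annotated transcript ran 1729 bases past the stem-loop, in HIST1H3E 1862 bases and in H2AFX 1044 bases, whereas the transcript of HIST1H2BD that holds the stem-loop ended 39 bases past it. The other annotated transcript of HIST1H2BD lacks the stem-loop and ends at a second exon, at position 26171349 of chromosome 6 (GRCh38). HIST1H1C, the gene with the largest count of the replication-dependent class, had no stem-loop in its annotated transcript, which covers 642 bases of exon. Sequence past the annotated ends was not searched, so a stem-loop lying there would be missed.

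Promoter sequence is shown for 1 gene of each direction and 1 with the largest count of its class, as the 250 bases before the RefSeq start (GRCh38.p14, 5′ to 3′ on the gene's own strand, all 3 on the minus strand). Capitals mark the CCAAT box, the TATA motif TATAAA and the Oct octamer ATTTGCAT on either strand, so that a box may be printed as its reverse complement.
HIST2H2BE (chr1:149886683-149886932): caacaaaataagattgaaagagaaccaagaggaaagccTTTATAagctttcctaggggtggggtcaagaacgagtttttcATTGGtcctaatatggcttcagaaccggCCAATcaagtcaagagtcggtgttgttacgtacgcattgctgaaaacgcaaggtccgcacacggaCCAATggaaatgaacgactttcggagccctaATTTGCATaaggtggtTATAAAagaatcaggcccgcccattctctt
HIST1H1C (chr6:26056471-26056720): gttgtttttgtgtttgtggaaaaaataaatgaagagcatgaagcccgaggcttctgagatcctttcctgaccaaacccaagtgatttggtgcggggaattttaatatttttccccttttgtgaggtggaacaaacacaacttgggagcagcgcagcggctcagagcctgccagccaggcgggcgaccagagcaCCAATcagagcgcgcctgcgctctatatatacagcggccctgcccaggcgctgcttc
H2AFZ (chr4:99950276-99950525): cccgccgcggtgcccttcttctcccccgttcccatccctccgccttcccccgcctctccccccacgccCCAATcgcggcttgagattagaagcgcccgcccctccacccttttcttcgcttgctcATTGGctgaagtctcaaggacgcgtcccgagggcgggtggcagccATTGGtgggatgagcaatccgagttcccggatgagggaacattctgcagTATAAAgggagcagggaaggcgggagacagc
Sequences of this kind were at hand for 51 of the 74 genes, 43 of them replication-dependent and 8 variant, and motifs were searched in 300 bases, from 250 before to 50 after the start. The octamer, a binding site of the Oct factors known from H2B promoters, was in 11 of 14 H2B and 7 of 9 H2A promoters of the replication-dependent class, in none of its H1, H3 or H4 promoters and in 1.774% of all 35116 promoters. Windows of H2A and H2B genes that stand head to head overlap, so 1 octamer may count for both. Among the 8 variant promoters it was in 1, that of H3F3B. CCAAT was in 34 of the 43 replication-dependent promoters and 34.61% of all promoters, and in the H4 family it was in 1 of 10. TATAAA was in 27 of 43, against 11.53% of all promoters. The palindrome TCTCGCGAGA, the motif the study associates with DYRK1A on chromatin, was in 0 of 43 replication-dependent and 0 of 8 variant promoters and in 0.4243% of all promoters. That count says only that these letters were not in those windows.

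Gene counts summed to between 33708297 and 42154438 per library, and the size factors that the authors took from the fly reads ranged from 0.821 to 1.21. Values below are spike-in normalized counts, the raw count divided by that factor, given in the order 1A, 1B and 1C. The hairpin's target, DYRK1A, stood at 2227, 2234 and 1895 in shControl and 1482, 1056 and 1285 in shDYRK1A, with no overlap between the groups and a log2 fold change of -0.73 ± 0.14 (SE, adjusted p 4.96e-06). Under scaling by the human genes (TMM) it was -0.37 (adjusted p 0.000146), inside the fold threshold of 0.7 used below. Of the glial markers, VIM had a mean of 87884 ± 10566 in shControl against 53493 ± 2591 in shDYRK1A (SD, n = 3 each). CD44 had a mean of 66349 ± 8027 in shControl against 53048 ± 4959.6 in shDYRK1A (SD, n = 3 each). The levels of NES and OLIG2 were low, with a mean of 77.7 ± 5.41 in shControl against 41.5 ± 5.54 in shDYRK1A (SD, n = 3 each) for OLIG2, and GFAP and SOX2 had means under 3 in both conditions and S100B had none. Of the markers of other cell types, the epithelial EPCAM had a mean of 36.6 ± 4.67 in shControl against 49.2 ± 14.4 in shDYRK1A (SD, n = 3 each). Its log2 fold change was 0.42 (adjusted p 0.25), and 0.76 under TMM (adjusted p 0.0221), past both thresholds. The endothelial PECAM1 had a mean of 16.2 ± 6.34 in shControl against 14.6 ± 3.79 in shDYRK1A (SD, n = 3 each), and the leukocyte gene PTPRC, the T cell gene CD3E and the neuronal RBFOX3 had means of 6.0 or less. OLIG2 was the lowest glial marker (log2 fold change -0.91, adjusted p 0.00298) and CD44 the highest (-0.32, adjusted p 0.023, but 0.053 under scaling by the human genes).

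Genes were tested with edgeR's quasi-likelihood test over all genes with a mean raw count of at least 10, 17331 in all, with Benjamini-Hochberg adjustment across that whole set. Calls required a log2 fold change beyond 0.7 in either direction together with an adjusted p under 0.05. On the spike-in scale the median of all tested genes was -0.37, so most genes were lower in shDYRK1A. When the libraries were scaled by the human genes instead (TMM), that median was 0.0047, and each fold change below moves up by about the difference. In bulk RNA, fewer cells in a phase or state and less of an mRNA per cell cannot be told apart.

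Replication-dependent histone genes were mostly higher than the median of all genes, and the calls among them were in the higher direction. Of the 52 genes, 34 passed the count minimum, and 8 of these were called higher in shDYRK1A, where 1.26% of all tested genes were. The 8 were HIST2H2BE, HIST2H2BF, HIST1H3E, HIST1H1C, HIST1H2BJ, HIST1H2AC, HIST1H2BK and HIST1H3H. None of the 34 was called lower, a call that 14.3% of all genes received. The unadjusted p of edgeR was below 0.05 for 0 of them in the lower direction, and DESeq2 also called 0 lower. Their median log2 fold change was 0.39, with 28 positive and 6 negative values, against a median of -0.37 over all genes. Only HIST1H4I lay below that overall median. Under TMM scaling the 8 genes were called again and a further 8 joined them, where 4.09% of all genes were called higher, and the class median was 0.76. The remaining 18 genes had mean raw counts between 2.0 and 9.5 and were not tested.

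**Figure D1:**
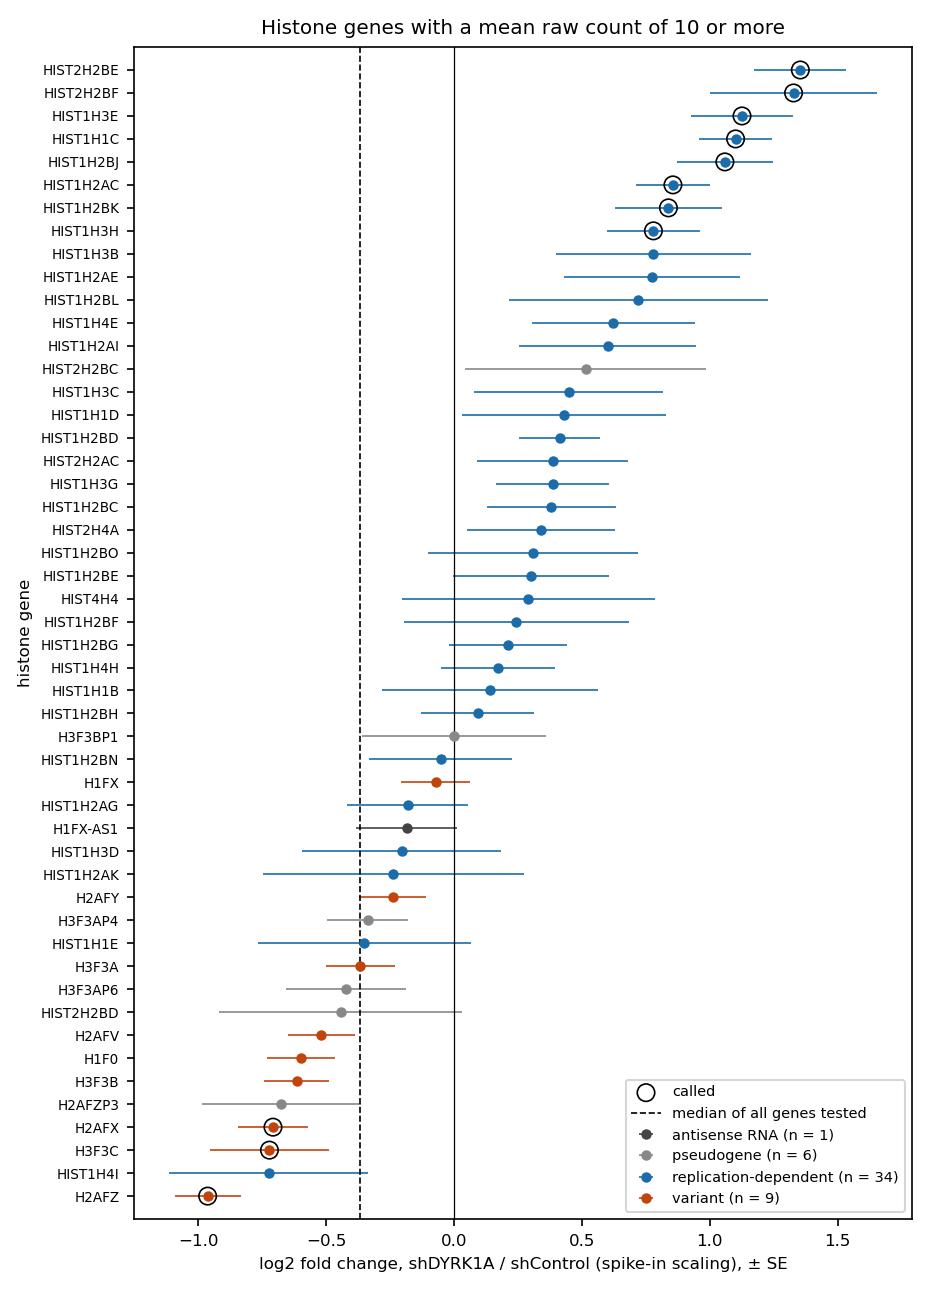
Log2 fold change (shDYRK1A over shControl, spike-in scaling, x axis) with its standard error for each of the 50 histone genes with a mean raw count of at least 10 (y axis), coloured by class, with called genes ringed. The 8 ringed replication-dependent genes lie between 0.78 and 1.35 and the 3 ringed variant genes between -0.96 and -0.71. Under TMM scaling all points move up by about 0.37, and the sign of HIST1H2BN, HIST1H2AG, HIST1H3D, HIST1H2AK, HIST1H1E, H1FX, H1FX-AS1, H2AFY, H3F3A and H3F3AP4 turns positive.

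The linker histone gene HIST1H1C (H1-2; GRCh38 chromosome 6, 26055787 to 26056428, minus strand, a single-exon gene) had the largest count of the class. It had 1623, 1416 and 1291 in shControl and 3354, 3139 and 2791 in shDYRK1A. Each shDYRK1A library was above each shControl library, and the log2 fold change was 1.10 ± 0.14 (adjusted p 1.11e-12). HIST1H2AC, an H2A gene (chromosome 6, 26124145 to 26139116, plus strand), had 1120.0, 1095 and 1032 in shControl and 2043, 1873 and 1959.5 in shDYRK1A. It rose by 0.86 ± 0.15 (adjusted p 1.11e-07), and its 3 libraries within a group differed little beside the gap between the groups. HIST1H2BD, an H2B gene (chromosome 6, 26158146 to 26171349, plus strand), had 571, 566 and 440.1 in shControl and 685, 716 and 695 in shDYRK1A. Its groups did not overlap either, and the log2 fold change of 0.41 ± 0.16 (adjusted p 0.0228) passed the p threshold but not the fold threshold. At that p alone 9 of the 34 tested genes were higher, where 1.94% of all genes were. The p of HIST1H2BD rested on single libraries: with 1 library left out in turn, it stayed below 0.05 in 3 of 6 fits over the 17331 genes and reached 0.0967 at most. These were the only 3 replication-dependent genes above 10 CPM, the expression filter of the study (counts scaled to the total of the library). Over the 9697 genes past that filter, HIST1H1C and HIST1H2AC were again called, where 0.278% of the genes were called higher. In the same set 2 of the 8 variants were called lower, where 14.3% of the genes were.

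Of the 13 tested H2B genes, 4 were called higher, where 1.26% of all tested genes were. HIST2H2BE and HIST2H2BF had the highest values of the class. HIST2H2BE (chromosome 1, 149884459 to 149886652, minus strand) had 205, 192 and 175 in shControl and 545, 438 and 476 in shDYRK1A, and its log2 fold change of 1.35 ± 0.18 (adjusted p 3.98e-12) was the largest. HIST2H2BF, also on chromosome 1, had 20.7, 22.7 and 22.4 in shControl and 56.7, 46.3 and 62.6 in shDYRK1A, a fold change of 1.33 ± 0.32 (adjusted p 0.000267) on a far thinner base. HIST1H2BJ had 205, 151 and 156 in shControl and 374, 327 and 362 in shDYRK1A and rose by 1.06 ± 0.19 (adjusted p 2.7e-07). In all 3 genes the lowest shDYRK1A library was above the highest shControl library. HIST1H2BK, for which 88.3% of the read-length words of its exons were found in no other gene, had 139, 95.3 and 101 in shControl and 199, 181 and 217 in shDYRK1A and rose by 0.84 ± 0.21 (adjusted p 0.000324). Reads of the remaining words could be shared with another histone gene.

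Among the H3 genes 2 were called. HIST1H3E had 131, 124 and 116 in shControl and 287, 247 and 274 in shDYRK1A, with a log2 fold change of 1.13 ± 0.20 (adjusted p 2.95e-07). HIST1H3H had 198, 258 and 186 in shControl and 361, 391 and 349 in shDYRK1A, and rose by 0.78 ± 0.18 (adjusted p 0.00012). The groups were apart in both genes. Without shControl 1C the fold change of HIST1H3H was 0.68, under the threshold, whereas the other 7 called genes stayed called in all 6 fits that left out a library.

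**Figure D2:**
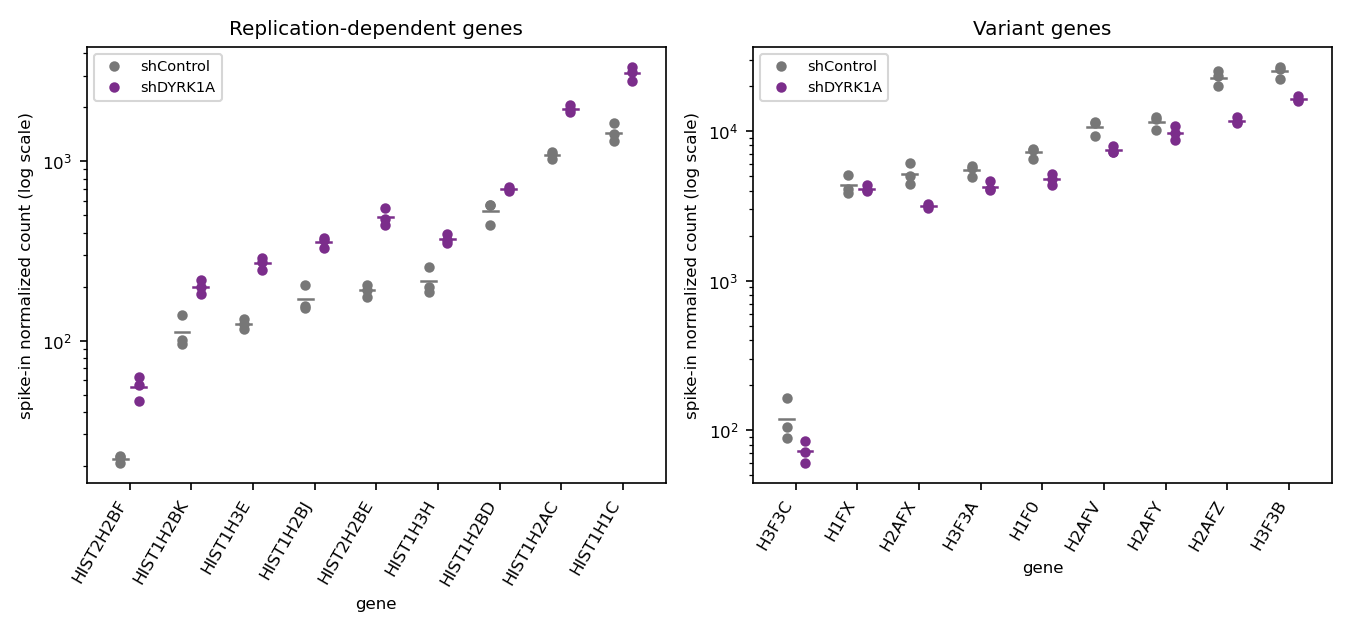
Spike-in normalized counts per library (y axis, log scale) of the 8 called replication-dependent genes and HIST1H2BD (left) and of the 9 tested variant genes (right), with the mean of each group as a bar. In the left panel the groups do not overlap for any gene and shDYRK1A is higher. In the right panel shDYRK1A lies lower without overlap for 7 genes, as for 48.7% of all tested genes, and H1FX and H2AFY overlap.

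Called genes were spread over the families and the loci. By family, 1 of 4 tested H1 genes was called higher, 1 of 6 H2A and 4 of 13 H2B. Of the H3 and H4 genes 2 of 6 and 0 of 5 were, where 1.26% of all tested genes were called higher. Positive values were found in 3 H1, 4 H2A, 12 H2B, 5 H3 and 4 H4 genes. The medians of the families were 0.29, 0.49, 0.38, 0.61 and 0.29 in that order. In the cluster on chromosome 6, 3 of the 18 tested genes near 26 Mb and 3 of the 11 near 27 Mb were called higher. Their medians were 0.40 and 0.31. On chromosome 1, 2 of 4 tested HIST2 genes were called higher, with a median of 0.86. The differences between families and loci were not tested. Calls went with depth: 7 of the 11 genes with a mean raw count of at least 100 were called, and 1 of the other 23. Of the 11 deeper genes, all had positive values, from 0.09 to 1.35, with a median of 0.84. That mean covers both conditions, so a rise itself helps a gene to reach 100, and the signs were partly set by the split. HIST1H3G, for example, had raw counts of 81, 81 and 112 in shControl and 148, 138 and 151 in shDYRK1A. In 13 of the 34 genes every shDYRK1A library was above every shControl library, against 3.57% of all genes, and 1 gene, HIST1H4I, was separated in the other direction, against 48.7%.

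HIST1H4I, an H4 gene, had 34.1, 28.4 and 22.4 in shControl and 13.2, 17.6 and 19.8 in shDYRK1A. Its log2 fold change of -0.73 ± 0.39 was the lowest of the class and did not pass the test (adjusted p 0.111). HIST1H1E, the second lowest, had 24.3, 17 and 19.5 in shControl and 18, 13 and 16.5 in shDYRK1A, and its groups overlapped (log2 fold change -0.35 ± 0.42, adjusted p 0.5, and 0.010 under TMM scaling). Both had about 20 reads per library, so that only large differences could have been detected.

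**Figure D3:**
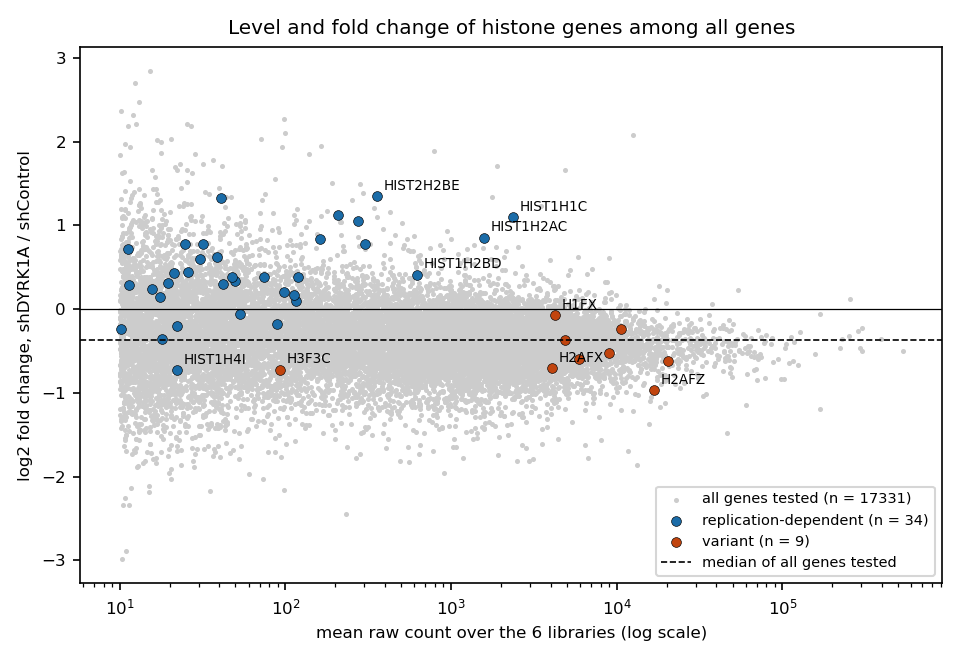
Log2 fold change (y axis, spike-in scaling) against the mean raw count over 6 libraries (x axis, log scale) for all 17331 tested genes in grey, 34 replication-dependent genes in blue and 9 variant genes in orange. The replication-dependent genes with over 100 reads lie above 0, over a cloud of genes centred on -0.37, and the 9 variant genes lie below 0. The mean count covers both conditions, so a rise itself moves a gene to the right.

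Several replication-dependent genes stand head to head and share the stretch between their starts. In 7 such pairs, chosen after the values were seen, the starts lay at most 357 bp apart, and both genes were tested in 6. HIST2H2BE and HIST2H2AC, separated by 323 bp, had log2 fold changes of 1.35 ± 0.18 and 0.39 ± 0.29 (adjusted p 0.277). HIST1H2BJ and HIST1H2AG, 292 bp apart, had 1.06 ± 0.19 and -0.18 ± 0.24 (adjusted p 0.542). In HIST1H2BC and HIST1H2AC, 219 bp apart, the H2A gene was the one called, and HIST1H2BC had 0.38 ± 0.25 (adjusted p 0.207). In these 3 pairs 1 gene of 2 passed the test, and in none of the 6 did both. Whether the partners differ from each other was not tested.

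Fold changes were also set beside the octamer in the promoter. Among the replication-dependent genes with a promoter sequence, 14 with ATTTGCAT were tested, with 5 called higher and a median of 0.38. Of 17 without it, 3 were called higher, and the median was 0.39. Of all tested genes 1.26% were called higher. Head-to-head partners may share 1 octamer, so the 14 genes are not all separate promoters. Of the sequences printed above, that of HIST2H2BE holds the octamer and that of HIST1H1C does not, and both genes rose.

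The tested genes were then grouped by the annotated 3′ end. Transcripts of 20 replication-dependent genes ran at least 100 bases past the stem-loop. Of these, 19 were tested, 5 were called higher, where 1.26% of all tested genes were, and the median was 0.30. In 10 genes the annotated transcripts that hold the stem-loop ended nearer to it, HIST1H2BD with its second transcript among them, of which 5 were tested, none was called and the median was 0.60, with HIST1H2BD past the p threshold alone. The 10 include HIST1H2AK (tested) and HIST1H2AL (not tested), whose match has another stem. That match lies 63 bases before the end of their 393-base transcripts. HIST1H2AB, an H2A gene without a match, has a transcript of the same length. The match thus most likely lies in the coding sequence, and these genes may not belong in this group. HIST1H2AK, at -0.24, was the only negative value of the 5 tested, so the median of 0.60 includes a doubtful member. The other 22 genes had no stem-loop in any annotated transcript. Of these, 10 were tested, 3 were called higher (HIST1H1C, HIST1H2BJ and HIST1H2BK) and the median was 0.44. Many of these transcripts are short, such as 381 bases in HIST1H2BK. A stem-loop past the annotated end would be missed, so these genes may still hold one. The share of genes that reached the count minimum was 19 of 20 for extended transcripts, 5 of 10 for those ending near the stem-loop and 10 of 22 for the rest. Extended genes mostly have more annotated exon in which reads are counted, 2194 bases in HIST2H2BE against 509 in HIST1H2AE and 381 in HIST1H2BK. The part of exon length in these shares was not tested. A poly(A) signal near an annotated end was found in 15 of the 20 extended genes, 4 of the 10 and 1 of the 22.

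**Figure D4:**
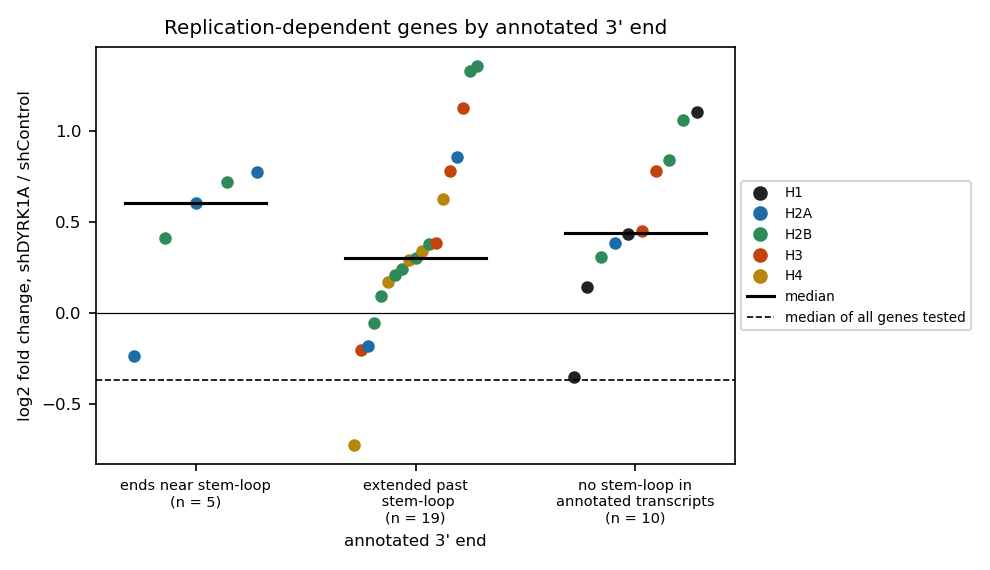
Log2 fold change (y axis, spike-in scaling) of the 34 tested replication-dependent genes by the annotated 3′ end (x axis), coloured by histone family, with the median of each group as a black bar. The medians are 0.60, 0.30 and 0.44, all above the median of all genes at -0.37 (dashed), and the groups overlap throughout.

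Variant histone genes moved in the other direction on the spike-in scale. Of the 10 genes, 9 passed the count minimum and all 9 had negative values, as had 14673 of all 17331 tested genes. Their median log2 fold change was -0.60 against -0.37 over all genes. H2AFZ, H2AFX and H3F3C fell past both thresholds, where 14.3% of all genes did, and 7 of 9 had an adjusted p below 0.05 in the lower direction, where 44.7% of all genes did. No variant was called higher by edgeR or DESeq2, and 0 had an unadjusted p below 0.05 in that direction. Since edgeR called only 1.26% of all genes higher, that absence among 9 genes says little about variants. The falls depended on the scale: under TMM 0 variants were called lower, where 2.87% of all genes were, and the median was -0.23. At an adjusted p below 0.05 alone, TMM placed 5 of the 9 lower and 2 higher, where 21.2% and 19.1% of all genes were.

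H2AFZ (H2A.Z; chromosome 4, 99948086 to 99950388, minus strand), the variant placed at promoters and enhancers, had 25045, 23281 and 19934 in shControl and 12350.1, 11414 and 11228 in shDYRK1A. The groups were far apart, and the log2 fold change of -0.96 ± 0.13 (adjusted p 7.64e-12) was the lowest of all tested histone genes. It kept its direction under TMM (-0.58, adjusted p 2.34e-07) but no longer passed the fold threshold. H2AFV, its close paralogue, had 11344, 11518 and 9242 in shControl and 7934, 7205 and 7261 in shDYRK1A, without overlap, and a log2 fold change of -0.52 ± 0.13 (adjusted p 0.000426; -0.14 under TMM). Per kilobase of annotated exon, the normalized level in shControl was 9879.9 for H2AFZ and 2253 for H2AFV.

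H2AFX, which is phosphorylated next to DNA breaks (chromosome 11, 119093854 to 119095467, minus strand), had 4984, 6066 and 4412 in shControl and 3254, 3155 and 3053 in shDYRK1A. Its log2 fold change was -0.71 ± 0.14 (adjusted p 2.7e-06), just past the fold threshold, with the highest value in shControl 1B. Without shControl 1B it was -0.57 and without shDYRK1A 1C -0.69. H2AFY, which encodes macroH2A1 and is linked to silent chromatin, had values of 12051, 12374 and 10107 in shControl and 10752, 8720.2 and 9757 in shDYRK1A. The groups overlapped, the log2 fold change was -0.24 ± 0.13 (adjusted p 0.116), and under TMM it was 0.13 (adjusted p 0.0236). Genes on the opposite strand overlap part of H2AFY.

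The 2 main genes for H3.3, the variant placed outside of replication, are H3F3A and H3F3B and encode the same protein. H3F3B (chromosome 17, 75776434 to 75785893, minus strand) had 26145, 26830.5 and 22136 in shControl and 17091, 15913 and 16001 in shDYRK1A. Its log2 fold change was -0.62 ± 0.13 (adjusted p 1.54e-05), and -0.24 under TMM (adjusted p 0.0015). H3F3A (chromosome 1, 226061851 to 226072001, plus strand) had 5820.3, 5689 and 4940.1 in shControl and 4657, 4036 and 4065 in shDYRK1A, also without overlap, with -0.37 ± 0.13 (adjusted p 0.0171). With 1 library left out in turn, that p stayed below 0.05 in the 2 of 6 fits that omitted shControl 1C or shDYRK1A 1A and reached 0.131 at most. The fold change is the median of all genes, and under TMM the value was 0.0076 (adjusted p 0.917). H3F3C, a retrotransposed H3 gene with few reads, had 164, 88.5 and 105 in shControl and 85.1, 71.3 and 60.1 in shDYRK1A and a log2 fold change of -0.72 ± 0.23 (adjusted p 0.00664). It rested on the highest shControl library: without shControl 1A it was -0.43 (adjusted p 0.226), and without shDYRK1A 1C -0.60 (adjusted p 0.0829).

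Of the linker variants, H1F0 (H1.0), known for its accumulation in resting and differentiated cells, had 7532, 7499 and 6542 in shControl and 5132, 4355 and 4750.2 in shDYRK1A. It was lower without overlap, with a log2 fold change of -0.60 ± 0.13 (adjusted p 5.81e-05) that passed the p threshold alone, and -0.23 under TMM (adjusted p 0.0008). H1FX (H1.X) had 4064, 5094 and 3846 in shControl and 4384, 3954 and 4032 in shDYRK1A, with overlapping groups and the highest value in shControl 1B. Its log2 fold change was -0.07 ± 0.14 (adjusted p 0.682), and TMM turned it to 0.30 (adjusted p 0.00264). The 3 H1 genes with most reads thus had values of 1.10, -0.60 and -0.07. H1FX-AS1, which overlaps H1FX on the opposite strand, had -0.19 ± 0.20 (adjusted p 0.446), and since the strand setting of the counting is not given in the sources used here, reads of the pair may not have been told apart.

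Of the 11 pseudogenes 6 were tested and none was called by edgeR or DESeq2, where edgeR called 1.26% of all genes higher and 14.3% lower. At an unadjusted p below 0.05, 2 were lower and 0 higher. H3F3AP4 had the most reads, with 683, 729 and 546 in shControl and 576, 510.5 and 462 in shDYRK1A, and its log2 fold change was -0.34 ± 0.16 (adjusted p 0.0671; 0.039 under TMM). None of its read-length words was unique, and which other genes hold them was not recorded. Its reads may thus belong to another gene. The log2 fold change of H3F3A was -0.37. H2AFZP3 had -0.68 ± 0.31 (adjusted p 0.0606), H3F3AP6 -0.42 ± 0.23 (adjusted p 0.125) and HIST2H2BD -0.44 ± 0.47 (adjusted p 0.452). In all, 10 of the 74 genes had under 50% unique words, HIST2H4A and HIST1H2AI among the tested ones, and their counts are uncertain. Without them the medians were 0.39 for the replication-dependent and -0.60 for the variant class.

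Summed over their members by name, both classes could be compared within a library, where the size factor cancels. For these sums CPM is the raw count scaled to the total of its own library. In the shControl libraries the replication-dependent genes held 114, 107 and 113 CPM of all gene counts, whereas the shDYRK1A libraries reached 254, 274 and 256 CPM. The 95% Wilson intervals, which cover counting error only, lay between 104 and 117 CPM for shControl and between 249 and 279.9 CPM for shDYRK1A. For the variant genes shControl had 2043, 2081 and 2048 CPM and shDYRK1A 1816, 1909 and 1831 CPM, with intervals between 2029 and 2095 and between 1803 and 1923. Thus the share of the replication-dependent genes was 2.35 times as large in shDYRK1A, 261 ± 11.2 CPM against 111 ± 3.91 CPM (SD, n = 3 each), and that of the variants 0.90 times. Per 100 variant reads there were 5.58, 5.12 and 5.50 replication-dependent reads in shControl and 14.0, 14.4 and 14.0 in shDYRK1A, so the groups were far apart beside the spread within them. On the spike-in scale the replication-dependent sum was 1.75 times and the variant sum 0.669 times the shControl value. These sums were given no test.

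A few genes made up most of these reads. HIST1H1C held 28.6% of the replication-dependent reads in shControl and 35.1% in shDYRK1A, HIST1H2AC 21.6% and 22.3%, and HIST1H2BD 10.4% and 7.95%. Together they held 60.7% in shControl and 65.3% in shDYRK1A. Among the variants H3F3B held 26.8% and 26.2% and H2AFZ 24.4% and 18.7%. Per kilobase of annotated exon, the normalized level in shControl was 4082 for H3F3B, 2248 for HIST1H1C, 649 for HIST1H2AC, 604 for HIST1H2BD and 86.8 for HIST2H2BE. In a library of polyadenylated RNA these levels do not measure all transcripts of a replication-dependent gene.

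**Figure D5:**
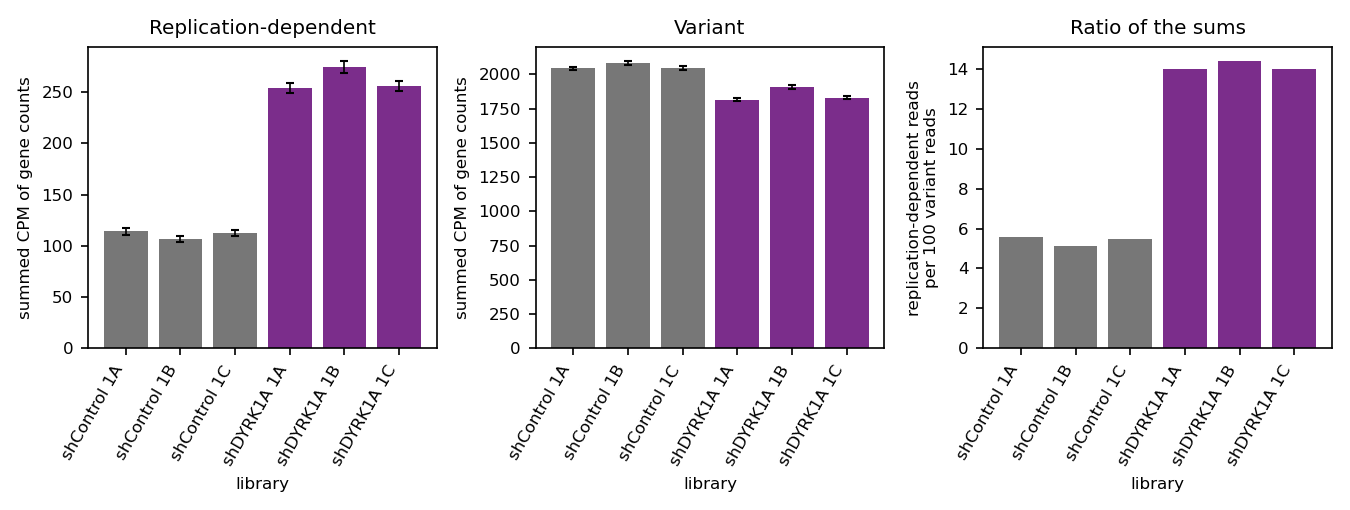
Summed CPM of replication-dependent genes (left) and of variant genes (middle), and replication-dependent reads per 100 variant reads (right), for each of the 6 libraries (x axis), with 95% Wilson intervals for counting error on the left and middle bars. The left bars stand at 107 to 114 in shControl and 254 to 274 in shDYRK1A, and the right bars at 5.12 to 5.58 and 14.0 to 14.4.

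The genes that make, cut and degrade histone mRNA are given beside the shares over all tested genes, of which 14.3% were called lower and 44.7% were lower at an adjusted p below 0.05 alone. NPAT, the cyclin E/CDK2 substrate that activates the histone clusters, had 1680.0, 1788 and 1438 in shControl and 980.2, 706 and 857 in shDYRK1A. It fell by 0.95 ± 0.15 on the log2 scale (adjusted p 6.19e-09; -0.58 under TMM). Of the 6 transcription factors and coactivators on the list, 2 were called lower, against 14.3% of all genes, and HINFP, which acts on H4 promoters, was highest (-0.22 ± 0.15, adjusted p 0.211; 0.15 under TMM). SLBP had 3785, 3750.4 and 3006 in shControl and 2268, 1972 and 2087 in shDYRK1A, without overlap, and fell by 0.74 ± 0.14 (adjusted p 1.86e-06; -0.36 under TMM). It was the lowest of 17 genes of 3′ end processing, of which 2 were called lower, against 14.3% of all genes, and 14 had an adjusted p below 0.05 in that direction, against 44.7%. LSM10, a subunit of the U7 particle, was the highest, at 0.11 ± 0.15 (adjusted p 0.568; 0.48 under TMM).

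Of 11 genes of histone mRNA decay, 3 were called lower (14.3% of all genes) and 9 had an adjusted p below 0.05 in that direction (44.7% of all genes). ERI1, the exonuclease that trims the stem-loop, was the lowest at -0.96 ± 0.15 (adjusted p 1.54e-09), and the helicase UPF1 the highest at -0.16 ± 0.14 (adjusted p 0.321; 0.21 under TMM). Of 12 genes of cleavage and polyadenylation, 1 was called lower and 8 had an adjusted p below 0.05 in that direction, against the same 14.3% and 44.7%. NUDT21, which influences the choice of poly(A) site, was the lowest at -0.74 ± 0.13 (adjusted p 4.73e-07; -0.37 under TMM), and PCF11 the highest at -0.22 ± 0.14 (adjusted p 0.185; 0.15 under TMM). The medians of the 4 lists were -0.38 for transcription, -0.48 for processing, -0.43 for decay and -0.40 for polyadenylation, against -0.37 over all genes, and under TMM scaling they were between -0.10 and -0.013.

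Genes of the replication fork, which are active in the phase that needs new histones, were lower throughout. Of 20 genes, 18 were called lower, where 14.3% of all genes were, and all 20 had an adjusted p below 0.05, also under TMM scaling. Their median log2 fold change was -0.83, and -0.46 under TMM. RFC3, a subunit of the clamp loader, had 3276, 3268 and 2553 in shControl and 1078, 932 and 1147 in shDYRK1A and the lowest value, -1.53 ± 0.15 (adjusted p 4.55e-23; -1.14 under TMM). The helicase subunit MCM7 had the highest, -0.53 ± 0.13 (adjusted p 0.000258; -0.15 under TMM). The replication-dependent histone genes and the fork genes thus had medians of opposite sign, 0.39 and -0.83, and the part of the cell cycle in either was not tested.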

How the data were processed

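The authors deposited raw gene counts for 6 libraries of T98G cells (3 shControl, 3 shDYRK1A), 58174 human gene identifiers per file, made from paired reads of a stranded mRNA protocol. The submitters' processing notes name STAR, DESeq2, hg38 and dm3. The aligner version, annotation and strand setting are not given in the sources used here. The second deposited table holds a normalized signal, which the authors made by dividing the counts by 1 fly-derived size factor per library, for 23026 genes. A table of the authors' own comparison (fold changes, p-values) was not used. Unmapped, multimapping and ambiguous reads and those outside annotated genes stayed out of library sizes. Gene coordinates equalled GENCODE v29 for 95.8% of these genes and 72 of the 74 members, so GRCh38 was used.

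The raw counts were tested in R 4.3.3 by the robust quasi-likelihood F test of edgeR 4.0.16, with the authors' size factors and Benjamini-Hochberg adjustment, over the 17331 genes with a mean raw count of at least 10 and, as in the study's methods, over the 9697 genes above 10 CPM. Standard errors are the fold change over the square root of the F statistic. The steps were tested on simulated data. Shares carry 95% Wilson intervals (scipy 1.17.1). Unique words are words of a read's length in the transcripts of a gene found in no other gene. A match of the stem-loop pattern allowed G-T pairs. In HIST1H2AK, HIST1H2AL and the pseudogene HIST1H2APS4 the match has another stem than in the other genes.

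Members, lists and thresholds were chosen with earlier results of these data known. Named genes are DYRK1A, each member above 10 CPM, of the others tested the 6 lowest, 6 highest and 4 most abundant, each variant with a mean count of at least 10, SLBP and NPAT, and the extremes of each list. Other settings tried were scaling by TMM or median of ratios, DESeq2 1.42.0, filterByExpr, no filter beyond 1 count, a replicate block, each library left out, the p threshold alone, protein-coding members only, and the sums without the most abundant member. Members with at least 50% unique words were tried after seeing the data. All per-sample columns matched a sample.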

Additional observations from a re-analysis of the deposited data

How the results depend on the processing

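Scaling moved the most values. Under TMM and median-of-ratios scaling the median log2 fold change of the replication-dependent genes went from 0.39 to 0.76 and 0.76 among the 17331 genes and from 0.86 to 1.23 and 1.23 among the 9697, and that of the variants from -0.60 to -0.23 and -0.22 and from -0.56 to -0.18 and -0.18. The calls went from 8 to 16 and 16 replication-dependent genes higher, and from 3 to 0 and 0 (2 to 0 and 0 above 10 CPM) variants lower. Both scalings turned the sign of H1FX (0.30 and 0.31), H2AFY (0.13 and 0.14), H3F3A (0.0076 and 0.011), H3F3AP4 (0.039 and 0.043), HIST1H1E (0.010 and 0.013), HINFP (0.15 and 0.15), PCF11 (0.15 and 0.15), UPF1 (0.21 and 0.21), CD44 (0.053 and 0.056) and PECAM1 (0.25 and 0.25). The filter moved the 9697-gene result by its construction, since more members were tested: filterByExpr and no filter beyond 1 count each gave 8 replication-dependent genes higher in place of 2, with medians of 0.39 and 0.34 in place of 0.86. At an adjusted p below 0.05 alone, 7 variants were lower in place of 3, and 6 in place of 2 above 10 CPM.

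With 1 library left out, the number of replication-dependent genes called higher among the 17331 genes was 7 to 11 and the number of variants lower 1 to 3 (1 to 2 above 10 CPM), with 1 variant left without shDYRK1A 1C, and with 1 above 10 CPM also without shControl 1B. The class medians were 0.31 to 0.49 and 0.82 to 0.89 for replication-dependent genes and -0.66 to -0.48 and -0.64 to -0.51 for variants. H1FX took values from -0.15 to 0.060 and PECAM1 from -0.37 to 0.21. SLBP was between -0.84 and -0.68 and DYRK1A between -0.85 and -0.61, beyond and within the fold threshold.

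The difference in the CPM of replication-dependent genes was 150.3, and 90.2 without the most abundant member of each class. The difference in replication-dependent reads per 100 variant reads was 8.71, and 7.14 without those members. DESeq2 gave the same calls among the members.

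Same-numbered libraries deviated together with correlations of 0.151 (1A), 0.0729 (1B) and 0.128 (1C), the highest for each number. All differently numbered pairs had negative values, from -0.0939 to -0.0143. Since not all same-numbered values were over 0.1, the numbers were not taken to pair the samples. That cutoff does not exclude a pairing. With a replicate block, 10 replication-dependent genes were higher and 2 variants lower, and 1 variant was lower above 10 CPM in place of 2. Depth limits the genes with few reads: 18 replication-dependent genes were under the count minimum, and 22 of the 23 tested with a mean count under 100 were not called.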
